A study of Mus musculus with 4 samples.

Results

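Zymogenic cells of the stomach taken from mice lacking MIST1 were compared with mucous neck cells of wild-type mice, and wild-type zymogenic cells gave the end point that sets the scale. The comparison uses 1 array a side, so 2 of the 4 arrays of the study, with 1 more for scale. The 4 groups were MIST1 knockout zymogenic cells, wild-type zymogenic cells, MIST1 knockout neck cells and wild-type neck cells of the adult stomach, all on a C57BL/6 background and with no treatment named. The labels name neither the allele nor the ages in weeks. Cells were cut from sections by laser capture, in which a microscope-guided laser lifts out chosen cells. The RNA on each array was a pool of several dissections and several mice, about 100 ng before amplification, so 1 array stands for no single animal. Zymogenic cells were recognised by lying deeper in the gland than the GS-II lectin label and by lacking the outline of parietal cells. That lectin binds neck cell mucus, so mucus genes stand close to how the cells were picked.

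Mucous neck cells sit in the middle of the gastric corpus gland and secrete mucin and trefoil peptide. They are held to be precursors of zymogenic (chief) cells, which take up a place at the gland base, lose the mucus program, enlarge the rough endoplasmic reticulum (ER) and store pepsinogen and other enzymes in large granules. MIST1, a basic helix-loop-helix factor encoded by Bhlha15, is turned on late in this change and is known for building the secretory apparatus of serous cells. The comparison therefore asks how far zymogenic cells without MIST1 lie from the normal precursor state.

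Values are probe set intensities on a linear scale, and differences are log2 values with a floor at an intensity of 1, written as MIST1-null zymogenic minus wild-type neck unless another pair is named. Of 35512 probe sets, the 21789 with exactly 1 gene were used, and they gave 19938 genes. The median of all 1-gene values was an intensity of 43.7, here called the detection level; it is set by size alone, with no background measured. A gene counted as detectable in a pair where its higher value reached that level. The median intensity was 39.6 on the MIST1-null zymogenic array, 40.9 on the wild-type zymogenic array, 37.9 on the MIST1-null neck array and 39.3 on the wild-type neck array. With 1 array a group no difference has a replicate check, no p-value is given, and precision is limited by how few arrays there are. Both zymogenic arrays were set against the same wild-type neck array, so a deviation of that array moves both differences together.

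Bhlha15 read 22.0 on the MIST1-null zymogenic array, 149.8 on the wild-type zymogenic array, 20.2 on the MIST1-null neck array and 59.7 on the wild-type neck array. Both MIST1-null arrays thus lay under the detection level and both wild-type arrays above it. The targeted gene was lower in MIST1-null zymogenic than in wild-type neck cells by a log2 difference of -1.44, while wild-type zymogenic cells differed from the same neck array by 1.33. Whether its probes lie inside the deleted stretch is not known here.

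Taken over all genes, MIST1-null zymogenic cells lay almost as far from wild-type neck cells as wild-type zymogenic cells did. The SD of the log2 difference was 0.67 over 11547 detectable genes for MIST1-null zymogenic against wild-type neck cells. It was 0.73 over 11778 genes for wild-type zymogenic against wild-type neck cells. The smallest distance in the study was that of the neck arrays, MIST1-null over wild-type, at 0.48. The zymogenic arrays, MIST1-null over wild-type, were 0.65 apart. By the SD, MIST1-null zymogenic cells thus stood at a like distance from the normal precursor and from the normal end point. Other measures disagreed. Against wild-type neck cells 81 of 11547 genes were at least 4-fold higher and 96 lower. Against wild-type zymogenic cells 35 of 11826 were higher and 70 lower. The interquartile range was 0.72 against wild-type neck and 0.78 against wild-type zymogenic cells.

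**Figure D1:**
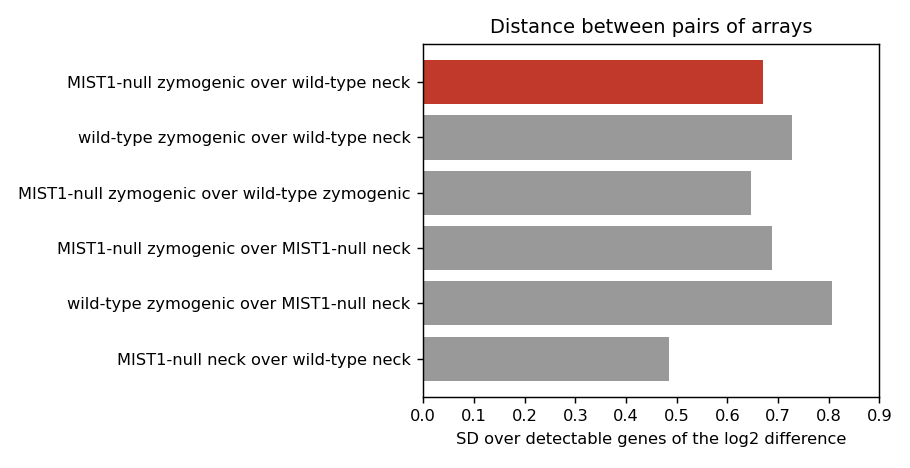
SD over detectable genes of the log2 difference for each of the 6 pairs of arrays, with the comparison described here in red. It stood at 0.67, between the neck pair at 0.48 and wild-type zymogenic over MIST1-null neck cells at 0.81.

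Of the 11547 genes, 579 were at least 2-fold higher in MIST1-null zymogenic than in wild-type neck cells, or 5.01%, and 575 were at least 2-fold lower, or 4.98%. For wild-type zymogenic against wild-type neck cells these shares were 6.27% higher and 6.78% lower. The neck pair, of 1 labelled cell type but of separate pools of mice and dissections, had 4.29% of its genes past 2-fold in either direction. Of the 579 higher genes, 349 read under the detection level in wild-type neck cells, and of the 575 lower genes, 361 read under it in MIST1-null zymogenic cells, so for most of them the size is not firm. With 32 added to every intensity, 211 genes were higher and 201 lower.

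The other pair of arrays, wild-type zymogenic over MIST1-null neck, shares no array with the comparison and gives gene lists whose 2-fold cut was not made on it. In that pair 8.13% of detectable genes were at least 2-fold higher and 7.93% lower. Among genes detectable in both pairs, 659 were higher there. Of these, 190 or 28.8% were also at least 2-fold higher in MIST1-null zymogenic than in wild-type neck cells, against 4.46% of all such genes. Of 831 genes lower there, 195 or 23.5% were also at least 2-fold lower, against 4.63% of all. No interval is given, because genes read on the same arrays are not independent draws. With no filter on low values the shares were 15.7% for higher and 20.9% for lower genes. With the neck arrays exchanged they were 38.4% and 28.8%. The median difference was 0.38 for the higher genes and -0.35 for the lower ones, against 0.04 over all genes.

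Read the other way round, 459 genes at least 2-fold higher in MIST1-null zymogenic over wild-type neck cells had a median of 0.71 in wild-type zymogenic over MIST1-null neck cells, and 41.4% of them were at least 2-fold higher there. The 476 lower genes had a median of -0.75, and 41.0% of them were at least 2-fold lower. Over all 10289 genes detectable in both pairs, 6.40% were at least 2-fold higher there and 8.08% lower, with a median of -0.01. Genes of both zymogenic arrays therefore left the neck level in the same direction more often than genes at large, in pairs that share no array. Detection was required in both pairs here too.

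The mucus program was the group furthest below the neck level. Muc6, the gland mucin, read 20.7 in MIST1-null zymogenic, 26.7 in wild-type zymogenic, 2980.3 in MIST1-null neck and 2511 in wild-type neck cells, a log2 difference of -6.92. Agr2, the disulfide isomerase that folds mucins, read 223, 273, 3472 and 2979 in the same order of arrays, a difference of -3.74. Both zymogenic arrays lay far below both neck arrays, and for Muc6 they lay under the detection level.

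Trefoil factor 2, Tff2, a peptide packed with the mucin, set the zymogenic arrays apart from each other. It read 277 in MIST1-null zymogenic, 1320.4 in wild-type zymogenic, 3827 in MIST1-null neck and 3088 in wild-type neck cells. The difference was -3.48 for MIST1-null zymogenic cells and -1.23 for wild-type zymogenic cells, each against wild-type neck. MIST1-null zymogenic cells were thus further from the precursor level of this mucous product than the normal end point was.

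Other neck genes lay lower as well. Gkn3, a secreted gastrokine of neck cells, differed by -3.87, and A4gnt, which adds the terminal sugar that GS-II recognises, by -3.41. Ern2, a sensor of ER stress in mucous cells, differed by -3.08, and Creb3l4, an ER-bound transcription factor, by -4.44. The glycosyltransferases Galnt6 and Fut9 differed by -1.76 and -1.06. The transcription factor Spdef, which drives mucous differentiation, differed by -0.82 at 57.6 in MIST1-null zymogenic against 102 in wild-type neck cells.

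Of 16 genes on the neck list, 15 were detectable, 9 were at least 2-fold lower and 0 higher, with a list median of -1.76 against 0.04 over all detectable genes. For wild-type zymogenic cells the median was -1.40, also with 9 genes at least 2-fold lower. The other detectable members were the ER-bound factor Creb3l1 (-0.98), Pigr (-0.15), the water channel Aqp5 (0.49), B4galnt3 (0.49) and St3gal6 (0.84), besides Spdef, and Cd44 was under the detection level on every array. The genes of this list that reached the detection level only in neck cells had to lie below it in zymogenic cells, so the median carries that choice, and it was -1.41 with no filter on low values.

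**Figure D2:**
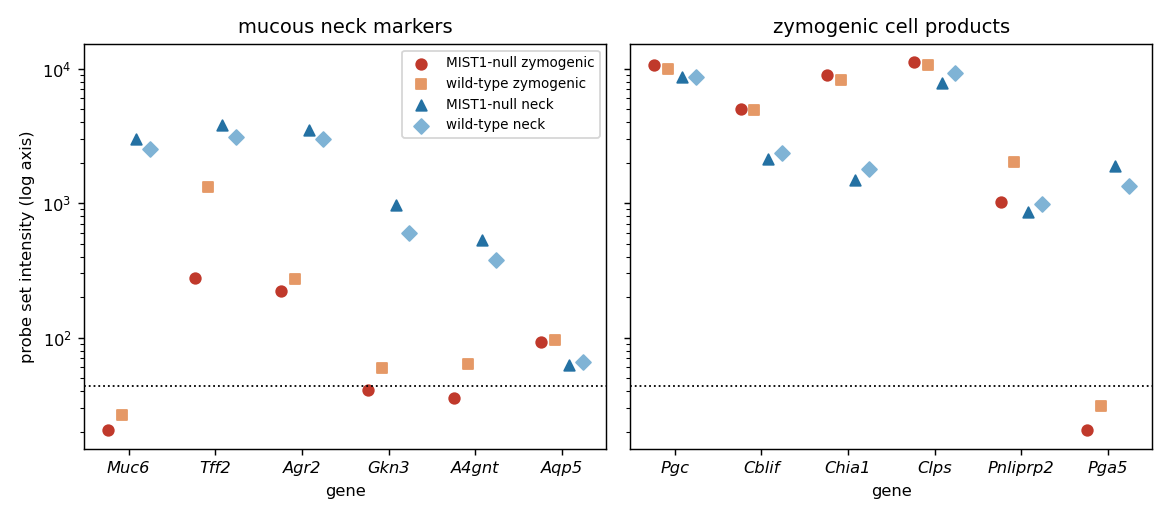
Probe set intensity (log axis) of 6 mucous neck markers and 6 zymogenic cell products on each of the 4 arrays, with the detection level as a dotted line. Muc6, Agr2, Gkn3 and A4gnt lay far lower on both zymogenic arrays, Tff2 lay lowest in MIST1-null zymogenic cells at 277, and Pga5 behaved like the neck mucin.

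Enzymes that build mucin sugars, a list that shares A4gnt and St3gal6 with the neck list, were lower in part. Of 27 detectable genes for mucin glycosylation, 10 were at least 2-fold lower and 0 higher in MIST1-null zymogenic than in wild-type neck cells, with a median of -0.30. Of the 27, 6 reached the detection level in wild-type neck cells alone and 4 in MIST1-null zymogenic cells alone. In wild-type zymogenic cells 8 of 27 were lower, with a median of -0.35. The branching enzymes Gcnt1 and Gcnt3 differed by -3.37 each, with 20.6 and 20.0 in MIST1-null zymogenic against 212.5 and 207 in wild-type neck cells. C1galt1, which makes the core of these chains, differed by -1.44, while its chaperone C1galt1c1 differed by 0.10. Galnt3, which starts the chains, and B4galt1, a galactosyltransferase, differed by -1.25 and -1.37, against -0.35 and -0.23 in wild-type zymogenic cells.

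Some secreted products of zymogenic cells stood at the normal end point in MIST1-null cells. Chia1, an acidic chitinase, read 9022 in MIST1-null zymogenic, 8209 in wild-type zymogenic, 1494 in MIST1-null neck and 1806 in wild-type neck cells, a log2 difference of 2.32. Cblif, gastric intrinsic factor, read 5029, 4882, 2120.4 and 2373 in that order, a difference of 1.08. Both zymogenic arrays exceeded both neck arrays for these genes.

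Pepsinogen C, Pgc, was very high on every array, at 10638 in MIST1-null zymogenic against 8698 in wild-type neck cells, a difference of 0.29. The pancreatic-type products colipase (Clps) and phospholipase A2 (Pla2g1b) were as high in both cell types, with a difference of 0.25 each.

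Not every product reached the end point. The lipase Pnliprp2 read 1027 in MIST1-null zymogenic, 2027 in wild-type zymogenic, 857 in MIST1-null neck and 993 in wild-type neck cells, so it stood at the neck level, with a difference of 0.05. Spink1, which inhibits trypsin, read 36.1, 319, 51.9 and 38.7, with a difference of -0.10 for MIST1-null and 3.04 for wild-type zymogenic cells. Both genes were thus high in wild-type zymogenic cells and at the neck level where MIST1 was missing. For Spink1 the MIST1-null zymogenic and wild-type neck values both lay under the detection level, so its -0.10 is not firm.

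Trypsin genes ran the other way. Try5 read 393 in MIST1-null zymogenic, 155 in wild-type zymogenic, 80.4 in MIST1-null neck and 36.8 in wild-type neck cells, a difference of 3.42. Try4 differed by 1.61 and Prss3 by 2.42, against 0.17 and 0.50 in wild-type zymogenic cells. These trypsinogen genes are close copies of each other, and how far the probes tell them apart was not tested.

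A second pepsinogen gene, Pga5, went against its group. It read 20.4 in MIST1-null zymogenic, 31.0 in wild-type zymogenic, 1884 in MIST1-null neck and 1349.5 in wild-type neck cells, a difference of -6.04. Of 9 detectable zymogenic products, 2 were at least 2-fold higher and 1 lower in MIST1-null zymogenic than in wild-type neck cells, with a median of 0.25. For wild-type zymogenic cells the counts were 3 higher and 2 lower of 10, with a median of 0.43.

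Genes for protein entry into the ER and for folding there were higher in MIST1-null zymogenic than in wild-type neck cells across the list. Of 40 detectable genes, 37 lay above 0 and 5 were at least 2-fold higher, against 1 lower, with a median of 0.69. In wild-type zymogenic cells 10 of 39 were at least 2-fold higher and the median was 0.50. The range was from -1.28 to 2.41, and most members lay under 2-fold.

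Ero1b, the oxidase that supplies disulfide bonds in secretory cells, was the furthest, with 753 in MIST1-null zymogenic, 608 in wild-type zymogenic, 102 in MIST1-null neck and 141 in wild-type neck cells, a difference of 2.41. Spcs2, a signal peptidase subunit, differed by 1.60, and Herpud1, which serves degradation of misfolded proteins, by 1.40. The main chaperone of the ER lumen, Hspa5 (BiP), read 2350 in MIST1-null zymogenic, 1710 in wild-type zymogenic, 1525 in MIST1-null neck and 1204 in wild-type neck cells, a difference of 0.97. Other chaperones had MIST1-null values above the normal end point. Canx (calnexin) and Calr (calreticulin) differed by 0.82 and 0.78, against 0.13 and 0.12 in wild-type zymogenic cells.

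Some members stopped short of the end point. Sec61b, a subunit of the channel for nascent chains, differed by 0.41 against 1.28 in wild-type zymogenic cells. Derl3 differed by 0.66 against 1.51, Creld2 by 0.97 against 1.60, and Spcs3 by 0.32 against 1.11. The 3 members below the neck level were Dnajc10, a reductase that helps clear misfolded proteins (-1.28), Srp14, of the signal recognition particle (-0.19), and the disulfide isomerase Pdia3 (-0.07). In wild-type zymogenic cells they differed by -1.56, -0.56 and -0.74.

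Promoters of the ER genes were searched for the ER stress element, which ATF6 binds with NF-Y, in the 250 bases before the gene start (RefSeq, GRCm38.p6, both strands). The letters searched were CCAAT, 9 bases of any kind and CCACG. Of 35 genes of the list with a promoter in that table, 10 held it, or 28.6%, against 0.13% of 27025 genes. Both shares rest on sequence alone and the list was drawn up by function, so they say nothing about differences between the arrays. The stretches of 5 of them are shown as examples, 5′ to 3′ on the strand of the gene. Capitals mark the element, which reads on the opposite strand in Ero1b and Creld2.
Hspa5, chr2:34772004-34772064, plus strand: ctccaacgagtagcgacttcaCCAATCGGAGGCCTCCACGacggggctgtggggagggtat
Ero1b, chr13:12565661-12565721, plus strand: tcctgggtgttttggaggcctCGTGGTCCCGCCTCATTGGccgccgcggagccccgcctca
Creld2, chr15:88819499-88819559, plus strand: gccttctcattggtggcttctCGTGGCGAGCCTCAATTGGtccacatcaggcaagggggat
Dnajc3, chr14:118937806-118937866, plus strand: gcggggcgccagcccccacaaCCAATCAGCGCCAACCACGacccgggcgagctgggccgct
Canx, chr11:50325779-50325839, minus strand: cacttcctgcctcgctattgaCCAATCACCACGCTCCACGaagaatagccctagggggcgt

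All 10 genes with the element lay above 0, from 0.23 for the ubiquitin ligase Syvn1 to 2.41 for Ero1b, with a median of 0.86. The genes without these letters numbered 25, of which 2 had no value on the arrays. Of the other 23, 20 lay above 0, with a median of 0.55. The same medians in wild-type zymogenic over wild-type neck cells were 0.62 with the element and 0.29 without it. A match is a description of the sequence, and no test was made.

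The regulators of the unfolded protein response set the zymogenic arrays on opposite sides of the neck level. Their median was 0.25 over 15 detectable genes in MIST1-null zymogenic and -0.42 over 13 in wild-type zymogenic cells. The medians thus rest on different sets of genes. Of the 15, 3 reached the detection level in MIST1-null zymogenic cells alone and 2 in wild-type neck cells alone, so their direction was set by the filter. Atf6, the sensor that is cut into a transcription factor, read 183 in MIST1-null zymogenic, 70.2 in wild-type zymogenic, 148 in MIST1-null neck and 113 in wild-type neck cells, a difference of 0.70 against -0.68 for wild-type zymogenic cells. Xbp1, which drives growth of the ER, differed by 0.89, Ern1, the kinase that splices Xbp1 RNA, by 1.10, and the kinase Eif2ak3 by 0.30. The sensor genes of mucous cells, Ern2 and Creb3l4, were the members at least 2-fold lower.

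Genes reported as MIST1-activated in earlier work on secretory cells, a list that was recalled and not checked here, had a median of 0.44 over 16 detectable members, with 1 at least 2-fold higher and 0 lower. In wild-type zymogenic cells 4 of 17 were higher, with a median of 0.51. Members at the neck level without MIST1 were Ccpg1, an ER-phagy receptor, at -0.07 against 0.81 in wild-type zymogenic cells, and Copz2, a coat protein of retrograde vesicles, at -0.23 against 1.57. Tmed6, a cargo receptor, went part of the way at 0.82 against 2.26. Dnajc3, Fndc3a and Sec11c differed little between the zymogenic arrays, at 0.93, 0.43 and 0.45 against 1.06, 0.46 and 0.70. Cpeb2, a regulator of mRNA translation, was the member past 2-fold at 2.24, against 0.51.

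Granule traffic genes showed no common direction, with a median of -0.11 over 23 detectable genes, 2 at least 2-fold higher and 2 lower. Stxbp6, which binds SNARE proteins, read 27.6 in MIST1-null zymogenic, 272 in wild-type zymogenic, 398 in MIST1-null neck and 383 in wild-type neck cells, a difference of -3.80. It was thus low on the MIST1-null zymogenic array alone. Sytl2, a Rab27 effector, was low on both zymogenic arrays, with a difference of -2.16 for MIST1-null and -2.19 for wild-type cells. The SNARE gene Snap25 (1.43) and the calcium sensor Syt7 (1.04), both also used by endocrine cells, were the 2 higher genes.

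Cell cycle genes lay below the neck level in MIST1-null zymogenic cells. Of 29 detectable genes, 11 were at least 2-fold lower and 1 higher, with a median of -0.63, and in wild-type zymogenic cells 10 of 29 were lower, with a median of -0.69. Of the 29, 14 reached the detection level in wild-type neck cells alone, so their direction was set by the filter, and 2 in MIST1-null zymogenic cells alone. With no filter the median over all 44 genes on the array was -0.61. The mitotic kinase Plk1 read 8.75 in MIST1-null zymogenic, 13.3 in wild-type zymogenic, 387 in MIST1-null neck and 379 in wild-type neck cells, a difference of -5.44. Top2a and Mki67, markers of dividing cells, differed by -2.45 and -2.02, and Birc5, survivin, by -2.49. Top2a read 20.0 in MIST1-null zymogenic, under the detection level, against 109 in wild-type neck cells. Its second probe set went the other way at 1.08, with 18.6 against 8.81, both under that level. The replication gene Pcna differed by -0.41 at 471 against 627. Ccnd2, a cyclin of the first growth phase, was the higher gene, with 1511 in MIST1-null zymogenic, 1328 in wild-type zymogenic and 465 in wild-type neck cells.

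Transcription factors of gastric epithelium were lower in part. Of 32 detectable factors, 8 were at least 2-fold lower and 1 higher, with a median of -0.25 against -0.47 in wild-type zymogenic cells. With the higher array at or above the 75th percentile the median was -0.63. Klf5, a factor of dividing epithelium, read 64.6 in MIST1-null zymogenic, 58.0 in wild-type zymogenic, 469 in MIST1-null neck and 434 in wild-type neck cells, a difference of -2.75. Foxq1, which acts on gastric mucins, differed by -2.28 and Id2, an inhibitor of helix-loop-helix factors, by -1.27. Onecut2 was lower in MIST1-null zymogenic cells alone, at 53.6 against 165 in wild-type zymogenic and 155 in wild-type neck cells. Ptf1a, a factor of pancreatic acinar cells, was the higher gene at 1.37, from low levels of 71.4 against 27.6. Sox9 differed by -0.98 and was alike on both zymogenic arrays, at 407 and 388, against 803 in wild-type neck cells.

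Markers of parietal cells, the acid-secreting neighbours, and genes of oxidative phosphorylation, which these mitochondria-rich cells hold at high levels, were lists whose median stayed near the neck level in MIST1-null zymogenic cells and lay below it in wild-type zymogenic cells. Parietal markers had a median of -0.10 over 19 detectable genes, against -0.86 over 18 in wild-type zymogenic cells. The proton pump subunit Atp4b read 1945 in MIST1-null zymogenic, 1202 in wild-type zymogenic, 2416.5 in MIST1-null neck and 2484 in wild-type neck cells. Atp4a differed by 0.17, the potassium channel subunit Kcne2 by 0.07 and the nuclear receptor Esrrg by -0.22, against -0.63, -0.99 and -1.78 in wild-type zymogenic cells.

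Of the 19 parietal markers, 2 were at least 2-fold higher and 1 lower in MIST1-null zymogenic than in wild-type neck cells. The higher ones were the disulfide isomerase Pdia2 (2.04), which was as high in wild-type zymogenic cells (1.92) and so did not run with the list, and Cckbr (1.07), the gastrin receptor. The lower one was the anion exchanger Slc26a7 (-1.59). Directly between the zymogenic arrays, MIST1-null over wild-type, 6 of 17 markers were at least 2-fold higher and 0 lower, where 5.15% of all detectable genes were higher and 5.23% lower. The summed intensity of the list was 14060 in MIST1-null zymogenic, 9025 in wild-type zymogenic, 14030 in MIST1-null neck and 12820 in wild-type neck cells, so the wild-type zymogenic array stood below the other 3. In bulk samples, fewer cells of a type and less RNA per cell cannot be told apart.

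All 42 oxidative phosphorylation genes on the array were detectable, with a median of -0.04 and a range from -0.57 to 0.67 in MIST1-null zymogenic cells. In wild-type zymogenic cells the median was -0.51, and 2 were at least 2-fold lower. Uqcrh, a subunit of complex III, read 4051 in MIST1-null zymogenic, 2452 in wild-type zymogenic, 3926 in MIST1-null neck and 3735 in wild-type neck cells. Cox7a2, of complex IV, read 1362, 778, 1382 and 1353 in that order. Here too the wild-type zymogenic array stood below the other 3, and the part of parietal cell RNA in these values was not tested. Ppargc1a, the coactivator of mitochondrial genes, exceeded the neck level in MIST1-null zymogenic cells, at 696 against 106 in wild-type zymogenic, 355 in MIST1-null neck and 213 in wild-type neck cells. Its second probe set differed by 1.16, against 1.71 for the one used.

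**Figure D3:**
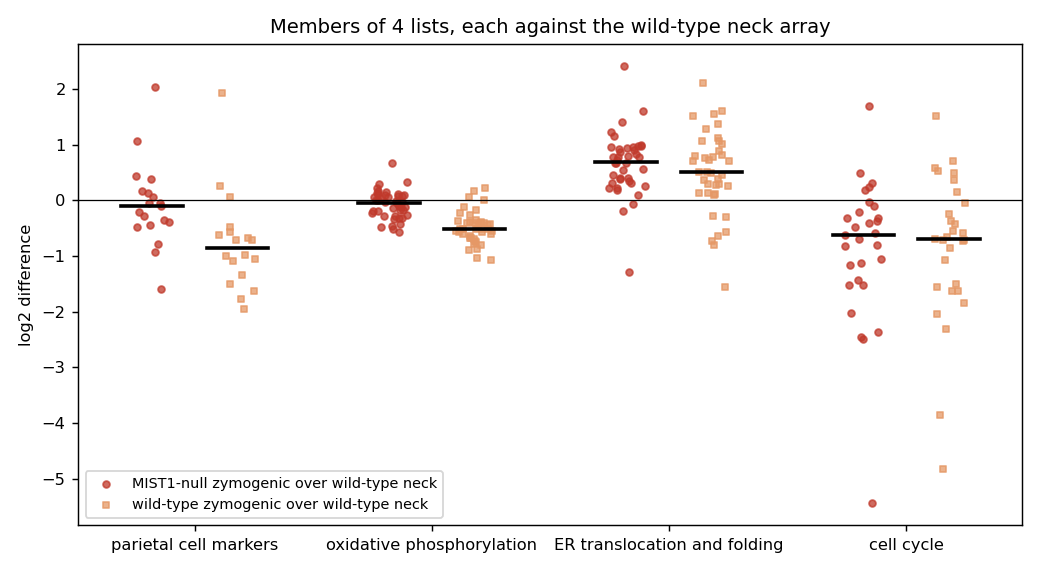
Log2 difference against the wild-type neck array for each detectable member of 4 lists, in MIST1-null zymogenic cells (circles) and wild-type zymogenic cells (squares), with list medians as bars. Medians of parietal markers (-0.10 against -0.86) and oxidative phosphorylation genes (-0.04 against -0.51) differed between the zymogenic arrays, and those of ER genes (0.69 against 0.50) and cell cycle genes (-0.63 against -0.69) lay closer together.

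Markers of cells that lie between or beside the glands were higher in zymogenic cells of either genotype. Fibroblast and smooth muscle markers had a median of 1.45 over 24 detectable genes, with 14 at least 2-fold higher and 0 lower. Of the 24, 18 reached the detection level on both arrays and 6 in MIST1-null zymogenic cells alone, and with no filter the median was 0.98. The summed intensity of their 28 genes was 4043 in MIST1-null zymogenic, 3653 in wild-type zymogenic, 1142 in MIST1-null neck and 1597 in wild-type neck cells. Smooth muscle actin, Acta2, read 246 in MIST1-null zymogenic against 60.7 in wild-type neck cells, and decorin, Dcn, 479 against 110. Col1a1 differed by 0.04, and endothelial markers had a median of -0.03 over 8 genes.

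Endocrine markers, from hormone cells within the gland, had a median of 0.97, with 7 of 16 at least 2-fold higher and 0 lower, and a median of 0.82 with no filter. Of the 16, 8 reached the detection level in MIST1-null zymogenic cells and not in wild-type neck cells, so their direction was set by the filter. Chgb, a granin of hormone granules, read 1757 in MIST1-null zymogenic, 1223 in wild-type zymogenic, 98.02 in MIST1-null neck and 225 in wild-type neck cells, a difference of 2.97. Histidine decarboxylase, Hdc, differed by 2.72, somatostatin, Sst, by 1.60 and ghrelin, Ghrl, by 0.67. Immune markers had a median of 0.83, with 4 of 15 higher and 0 lower, among them Lyz2 at 2.71. Here 7 of the 15 had entered through MIST1-null zymogenic cells alone, and the median was 0.34 with no filter, 0.48 with 32 added to each intensity and 1.25 against the MIST1-null neck array. The part of such neighbouring cells in the higher genes named next was not tested, and the granin gene Chgb and the matrix gene Bgn stand among them.

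**Figure D4:**
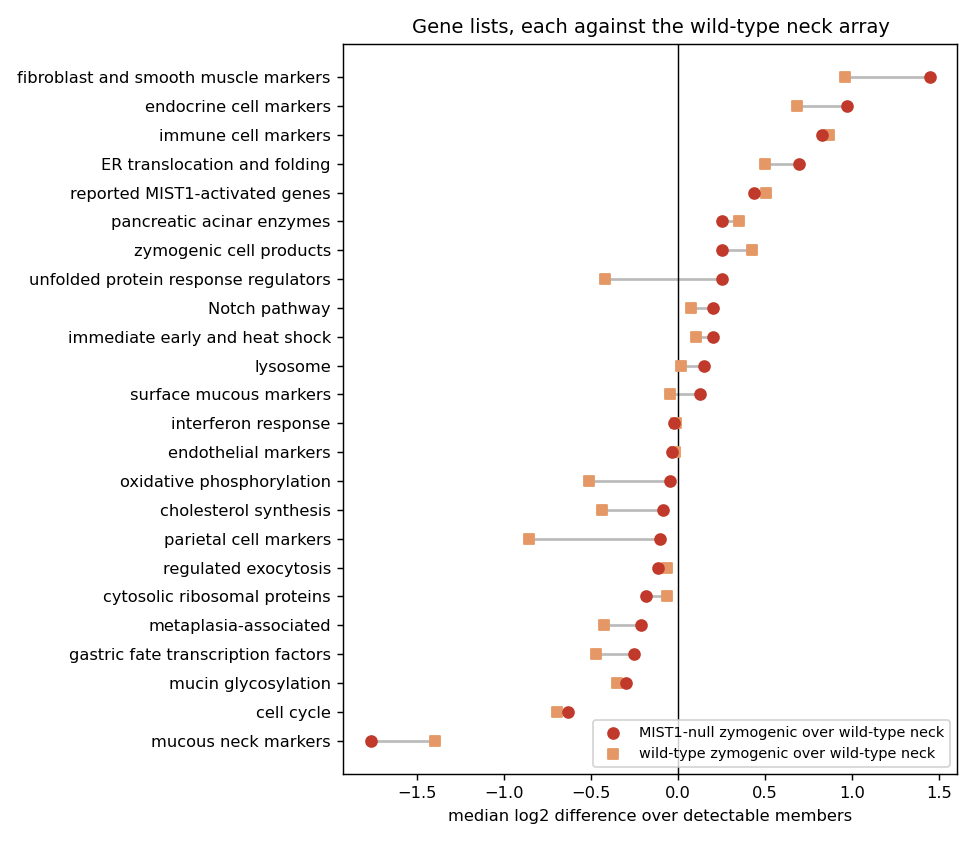
Median log2 difference over the detectable members of each of 24 gene lists, for MIST1-null zymogenic (circles) and wild-type zymogenic cells (squares), both against the same wild-type neck array. Neck markers lay lowest at -1.76 and fibroblast and smooth muscle markers highest at 1.45, and the gaps between the symbols were widest for parietal markers and unfolded protein response regulators.

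Among genes at or above the detection level on both arrays, Nrn1, a small anchored protein best known from neurons, had the largest increase over wild-type neck cells. It read 1420.1 in MIST1-null zymogenic, 898 in wild-type zymogenic, 197 in MIST1-null neck and 109 in wild-type neck cells, a log2 difference of 3.70. It was followed by Chgb, by Car8, an inactive relative of carbonic anhydrases (2.94), by Sostdc1, a secreted antagonist of BMP signals (2.86), and by Ptger3, a receptor for prostaglandin E2 (2.84). Tmem64 (2.74), the aminopeptidase Anpep (2.64), the proprotein convertase Furin (2.63), the pseudogene Gpr137b-ps (2.63), whose probes may also read its parent gene, and Ly6e (2.53) completed the 10.

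Car8 read 591 in MIST1-null zymogenic, 213 in wild-type zymogenic, 123 in MIST1-null neck and 76.8 in wild-type neck cells. Furin, which cuts precursor proteins in the secretory path, read 1023, 423, 149 and 165 in that order. Both thus lay beyond the normal end point in MIST1-null cells, and Sostdc1 was the gene of the 10 whose MIST1-null value (982) lay below the wild-type zymogenic one (1112). In wild-type zymogenic over MIST1-null neck cells, which share no array with this choice, 9 of the 10 were at least 2-fold higher, all but Car8 at 0.78.

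The 10 largest decreases measured on both sides were led by Agr2, followed by complement factor I, Cfi (-3.64), and Tff2. Mt2, a metallothionein that binds zinc and copper, differed by -3.30, Erlin1, which marks ER proteins for degradation, by -3.23, and Golm1, a Golgi membrane protein, by -3.07. Sharpin (-3.02), Klf5, the mitochondrial adenylate kinase Ak4 (-2.73) and the glutathione transferase Mgst2 (-2.72) followed. In wild-type zymogenic over MIST1-null neck cells 9 of these 10 were at least 2-fold lower, all but Sharpin at -0.41. Sharpin read 44.3 in MIST1-null zymogenic, 50.3 in wild-type zymogenic and 66.7 in MIST1-null neck cells, so its difference rests on the wild-type neck array at 360. A second probe set of Ak4 differed by -0.41.

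**Figure D5:**
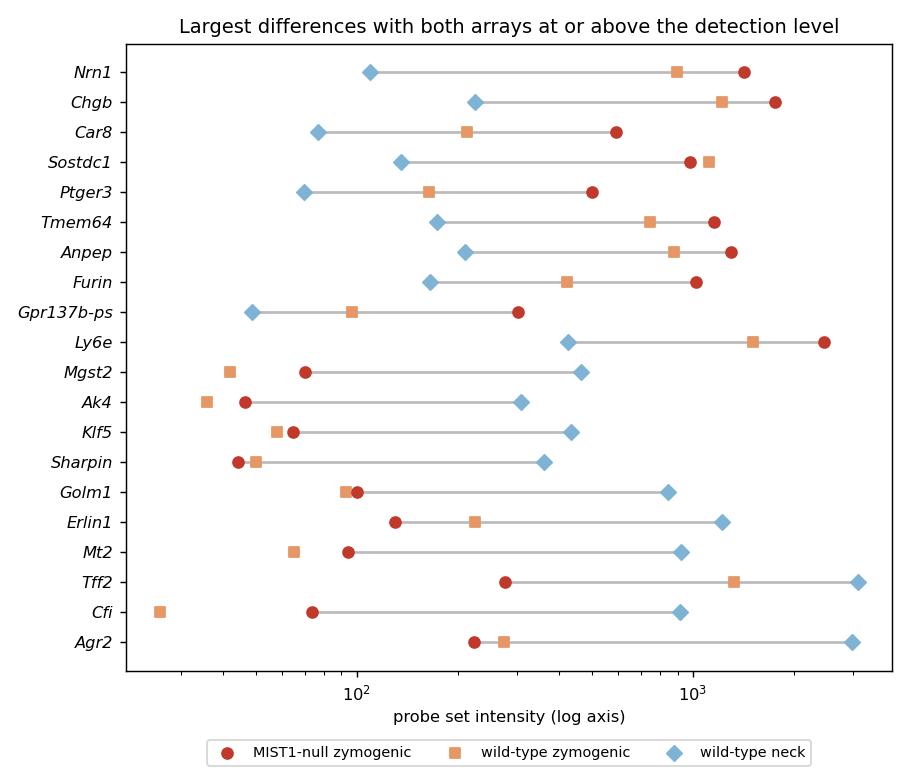
Probe set intensity (log axis) of the 10 genes furthest up and the 10 furthest down in MIST1-null zymogenic over wild-type neck cells, with both arrays at or above the detection level; squares give wild-type zymogenic cells. Nrn1 stood at 1420.1 against 109 in wild-type neck cells, and Agr2 at 223 against 2979.

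Other genes read under the detection level on 1 side. The homeobox gene Msx2 read 376 in MIST1-null zymogenic, 149 in wild-type zymogenic, 34.8 in MIST1-null neck and 11.7 in wild-type neck cells, a difference of 5.00, or 3.22 with 32 added to each intensity. Besides Try5, the others with the largest such increases were Serpina7, a thyroid hormone carrier (3.39), the matrix proteoglycan Bgn (3.29), Aldh1a7 (3.16), the glutamate transporter Slc1a2 (3.04), the estrogen receptor Gper1 (2.91) and Abca8a (2.82). Of these 8, 7 were at least 2-fold higher in wild-type zymogenic over MIST1-null neck cells too, all but Try5 at 0.94.

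Largest decreases to under the detection level were those of Muc6, Pga5, Plk1, Oit1 (-5.34), the glycosyltransferase-like Galntl6 (-4.66), Creb3l4, the secreted Fam3c (-4.37) and Tmem196 (-4.17). Tmem196 read 6.64 in MIST1-null zymogenic, 133 in wild-type zymogenic, 50.8 in MIST1-null neck and 120 in wild-type neck cells, so it was low on the MIST1-null zymogenic array alone. Its second probe set went the other way at 0.79, and the other probe sets of Galntl6 differed by -0.37 and 0.05. In wild-type zymogenic over MIST1-null neck cells, 7 of the 8 were at least 2-fold lower, all but Tmem196.

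A last group holds genes for which MIST1-null zymogenic cells lay far to the neck side of the end point, most of them past the neck level itself. They were picked for lying at least 2-fold apart between the wild-type arrays and furthest on the neck side of the wild-type zymogenic value, so their sizes are a description. Of the genes raised in wild-type zymogenic cells, Gdf9, which encodes an oocyte growth factor, read 239.8 in MIST1-null zymogenic, 1234 in wild-type zymogenic, 29.1 in MIST1-null neck and 100.5 in wild-type neck cells. The DNA helicase gene Blm read 96.9, 515, 50.4 and 54.0 in that order. Both went part of the way, with differences of 1.26 and 0.84 against 3.62 and 3.25.

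The other 6 lay below the wild-type neck value in MIST1-null zymogenic cells. The RNA polymerase subunit gene Polr2j read 37.5 in MIST1-null zymogenic, 680.4 in wild-type zymogenic, 62.4 in MIST1-null neck and 249 in wild-type neck cells. Nsun7, Aass, a lysine-degrading enzyme, Bhlha15 itself, Dnmt3l and Mphosph10 differed by -1.84, -1.79, -1.44, -0.54 and -0.86 from wild-type neck cells. Polr2j, Nsun7, Aass, Bhlha15 and Dnmt3l read under the detection level in MIST1-null zymogenic cells.

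Of the genes lowered in wild-type zymogenic cells, the 8 furthest on the neck side in MIST1-null cells all lay above the wild-type neck value there. Tmem50b read 521 in MIST1-null zymogenic, 52.9 in wild-type zymogenic, 318 in MIST1-null neck and 366 in wild-type neck cells. Tmx2, a membrane thioredoxin of the ER, read 461, 73.5, 391 and 325 in that order. For both genes the gap rests on the wild-type zymogenic array, which alone read low. Crlf3, Erap1, which trims peptides for antigen display, the iron carrier Slc25a37, the sialyltransferase St6gal1, Ppargc1a and Lgals7 differed by 0.67, 0.95, 1.31, 0.21, 1.71 and 1.32. Wild-type zymogenic cells had the lowest value for all but Lgals7, a galectin of layered epithelia, which was lowest in MIST1-null neck cells at 4.58.

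Other genes lay furthest beyond the end point. Gpx3, a secreted peroxidase, Serping1, an inhibitor of complement, and the noncoding RNA Meg3 differed by 2.76, 2.63 and 2.50, against 1.24, 1.15 and 1.07 in wild-type zymogenic cells, besides Slc1a2, Bgn, Ptger3, Car8 and Try5 above. Further below the neck level than the end point, after Tff2, were Cgref1 (-3.08 against -1.35), Glp1r, the receptor of an incretin hormone (-2.61 against -1.23), Ifnk (-2.50 against -1.16) and Slc9b2 (-3.47 against -2.48). Ly96, A4gnt and Sowaha followed, at -2.52, -3.41 and -1.87 against -1.61, -2.57 and -1.04. Of the 8 higher genes, 2 reached the detection level in wild-type neck cells. Of the 8 lower genes, 2 reached it in MIST1-null zymogenic cells. For the others, how far they lay beyond the end point is not firm. With 32 added to each intensity, Glp1r differed by -1.59 against -0.89.

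Members of 2 further lists went both ways. Pancreatic acinar enzymes had a median of 0.25, with 4 of 13 at least 2-fold higher, the 3 trypsin genes above and the carboxypeptidase Cpb1 (1.12), and with Sycn, a granule protein, lower at -1.25. Against the MIST1-null neck array that median was 0.58, and with no filter on low values it was 0.14. Of the 13, 3 reached the detection level in MIST1-null zymogenic cells alone and 1 in wild-type neck cells alone, so their direction was set by the filter. Immediate early and heat shock genes had a median of 0.20, with 4 of 19 higher and 1 lower. The higher ones were Atf3 (1.72), Ier3 (1.65), Jun (1.33) and the heat shock gene Hspa1a (1.26), and Myc differed by -1.01. Of these 19 genes, 4 reached the detection level in MIST1-null zymogenic cells alone and 1 in wild-type neck cells alone. With no filter the median of this list was 0.12. Medians of other lists were 0.13 for surface mucous markers, 0.15 for lysosome genes and 0.20 for Notch pathway genes, against 0.04 over all detectable genes. Interferon response genes had a median of -0.02, which came to 0.38 against the MIST1-null neck array. Metaplasia-associated genes, linked to mucous change in the injured stomach, had a median of -0.21, with Gkn3 and Wfdc2 (29.6 against 119) at least 2-fold lower and Lyz1 (1.55) higher of 12. Clu, raised in injured stomach, read 1088 in MIST1-null zymogenic, 641 in wild-type zymogenic and 966 in wild-type neck cells. Cholesterol synthesis genes had a median of -0.08, with 2 of 15 at least 2-fold lower, against a median of -0.43 in wild-type zymogenic cells. Ribosomal protein genes had a median of -0.18 over 36 genes, 0 of them past 2-fold. Many ribosomal protein genes have near-identical copies, so their probes may read several. Of the red blood cell list, Slc4a1 alone was detectable, at 55.6 against 49.8.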

How the data were processed

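Each deposited intensity is a probe set value that the authors obtained with dChip from Affymetrix Mouse Gene 1.0ST arrays, per the series design text. How background, probe summary and scaling were handled is not stated there. Symbols came from the platform annotation; 21698 Entrez identifiers matched RefSeq (GRCm38.p6), changing 0 symbols. Another 1621 probe sets with several genes and 12102 unlisted ones were left out, and of several probe sets the one with the highest mean log2 value stood for a gene. Named genes were the 10 largest differences each way with both arrays at the detection level, the 8 largest each way with the lower array under it, and, of genes 2-fold apart between the wild-type arrays, the 8 furthest short of and beyond the wild-type zymogenic value each way. The higher array had to reach the 75th percentile (80.9), and predicted, clone, olfactory, vomeronasal and small RNA symbols were left out. Bhlha15 and list members were added. The comparison, the 25 lists and the rules were chosen with earlier results of these data known. Steps were tested on simulated data. Python 3.11.15, pandas 2.3.3 and, for cyclic loess, limma 3.58.1 were used.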

Additional observations from a re-analysis of the deposited data

Results flagged for a closer look

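Results are given here where MIST1-null and wild-type zymogenic cells lay on opposite sides of the wild-type neck array, by at least 0.1 for a list median and at least 2-fold for a named gene. The difference was not tested in any of them, since each group was 1 array. Unfolded protein response regulators had medians of 0.25 over 15 detectable genes in MIST1-null and -0.42 over 13 in wild-type zymogenic cells. Some of these genes reached the detection level on 1 array of the pair alone. Polr2j was at -2.73 against 1.45, Nsun7 at -1.84 against 1.66, Aass at -1.79 against 1.47 and the targeted gene Bhlha15 at -1.44 against 1.33. Ppargc1a was at 1.71 against -1.01, Lgals7 at 1.32 against -1.33 and Slc25a37 at 1.31 against -1.19. The second probe set of Ppargc1a read 506 in MIST1-null zymogenic, 169 in wild-type zymogenic and 227 in wild-type neck cells. On it the wild-type zymogenic value was less than 2-fold lower, so that probe set misses the rule. All 7 genes were among those picked for a large gap between the zymogenic arrays.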

How the results depend on the processing

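No paired analysis was possible because each group was 1 array, and no array could be left out. Of 8 alternatives, quantile normalization, cyclic loess and the mean of probe sets moved no count by over 1.5 times and no list median by 0.25 or more. Median centring moved the share of genes chosen as higher on the other arrays to 33.2%. With 32 added to each intensity, 211 genes were higher and 201 lower, the SD was 0.46, that share was 33.3%, and medians were -0.87 for neck, 0.67 for endocrine 0.94 for fibroblast and smooth muscle markers and 0.48 for immune markers. With no filter on low values, 961 genes were lower, the share was 15.7%, and medians were -1.41 for neck and 0.98 for fibroblast and smooth muscle markers, while the immune marker median was 0.34 and metaplasia-associated genes changed sign to 0.17. With the 75th percentile filter, 340 genes were higher and 368 lower, the share was 36.8%, and medians were -3.25 for neck markers, -1.24 for mucin glycosylation, -1.28 for cell cycle genes, -0.63 for gastric fate factors, -0.68 for metaplasia-associated genes, -0.32 for endothelial, 0.46 for immune and 1.60 for endocrine markers, while surface mucous markers changed sign to -0.15. Fewer genes enter with that filter. Against the MIST1-null neck array in place of the wild-type one, with the neck arrays exchanged for the choice too, the shares were 38.4% for higher and 28.8% for lower genes. Medians were then -0.96 for cell cycle genes, 1.29 for endocrine, 1.72 for fibroblast and smooth muscle, 1.25 for immune and 0.48 for endothelial markers, 0.58 for pancreatic enzymes and 0.38 for interferon genes, and Bhlha15, low on both MIST1-null arrays, was at 0.12. Of the 20 genes named with both arrays at the detection level, 19 stayed at least 2-fold apart the same way against that array, all but Sharpin. Under the other 7 alternatives 20 did. Which genes ranked highest depended on the neck array. Against the MIST1-null neck array, 2 of the 10 largest increases and 8 of the 10 largest decreases kept a place among the largest 10. With the lower array under the detection level, 1 of the 8 increases and 7 of the 8 decreases did so. No detection call or background value was at hand, so how far low signals stand above background is not known. The causes of these shifts were not tested. The red blood cell list had no gene left under the 75th percentile filter.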
